A study of Mus musculus with 2 samples.

Results

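The genes described here are 4 miRNA genes that are not made chiefly by the stomach wall: Mir122, the main miRNA of hepatocytes, and Mir451a, Mir144 and Mir486, miRNAs of red blood cells. They were chosen by symbol, with earlier results of these data known, and all 4 were found among the 1973 miRNA genes counted. Small RNA under 30 nt was sequenced from whole stomach of healthy B6NCrl mouse embryos at embryonic day 15.5. Stomachs of 78 embryos went into replicate 1 and those of 62 embryos into replicate 2, with males and females mixed in both pools, and neither had any treatment or genetic change named. They form 1 group, so no comparison of conditions exists. The question here is how much liver and blood miRNA each dissected pool held.

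Hepatocytes fill their miRNA pool largely with miR-122, which represses many transcripts in liver and supports lipid and cholesterol metabolism. At this stage of mouse development the liver lies against the stomach and is also the main site of red cell production, so hepatocytes and maturing red cells occupy the same organ. Mir144 and Mir451a are made from a single primary transcript driven by GATA1, the main transcription factor of red cells, and protect red cells from oxidative stress. Mir486 is abundant in red cells and is also known from heart and skeletal muscle. Circulating red cells of the fetus reach every organ with its blood.

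The sequences of the clustered pair show how differently these neighbours are built. The hairpins of Mir144 and Mir451a lie 99 bases apart on the plus strand of chromosome 11, at chr11:78073005-78073070 and chr11:78073170-78073241. Both are given from RefSeq on GRCm38.p6, with the mature miRNAs in capitals.
Mir144 hairpin: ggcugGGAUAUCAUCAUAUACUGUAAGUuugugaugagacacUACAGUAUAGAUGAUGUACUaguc
Mir451a hairpin: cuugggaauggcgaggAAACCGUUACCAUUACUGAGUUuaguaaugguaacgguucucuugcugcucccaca
Mir144 gives a mature strand from each arm, as Dicer products do. The mature miR-451a covers bases 17 to 38 of a hairpin of 72 bases and so runs past its midpoint. It is known to be cut by Ago2 without Dicer.

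The seed, bases 2 to 8 of a mature miRNA, sets most of its targets, and is in capitals in the mature strands.
miR-144-5p: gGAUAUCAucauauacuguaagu
miR-144-3p: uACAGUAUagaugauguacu
miR-451a: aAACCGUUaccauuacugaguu
Among 1738 mature mouse miRNAs compared, a set without Mir122 and some other genes, none from another gene had any of these 3 seeds. When only bases 2 to 7 were matched, 1 did: miR-101a-3p, with miR-144-3p. Nor was any of the 3 mature sequences identical to that of another gene in the comparison.

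Where the genes lie bears on how their reads were counted. Mir122 (chromosome 18, 65248861 to 65248926, plus strand) overlaps an exon of AC157910.3, a long noncoding RNA gene of the same strand. Mir486 (chromosome 8, 23142555 to 23142682, plus strand) lies in an intron of Ank1, which encodes ankyrin-1 of the red cell membrane skeleton. On the minus strand inside Mir486 lies Mir3107, also named mir-486b, which was not analysed here. Opposite-strand reads at Mir486 numbered 12 in replicate 1 and 8 in replicate 2. Reads that match both genes of this locus would be among the multi-mapping reads, which were not assigned to genes, so the level of Mir486 is uncertain and may be too low.

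Mir451a also has a gene on its other strand, Mir451b, over the same 72 bases. Mature miR-451a differs from the best-matching stretch of the Mir451b hairpin at 4 of 22 bases. No opposite-strand read was counted at Mir451a in either library, which allows up to 0.501 CPM in replicate 1 and 0.449 CPM in replicate 2. CPM here is the count scaled to the same total of sense-strand reads on miRNA genes in each library, and the limit stands for 3 reads. Mir144 and Mir122 had none on the opposite strand either. Counts are per gene, so the strands miR-144-5p and miR-144-3p cannot be told apart.

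Replicate 1 had 5988677 sense-strand reads on miRNA genes and replicate 2 had 6675498. Multi-mapping reads made up 25.5% and 27.0% of all reads. The genes that mark the stomach wall were abundant in both pools, with Mir143 of smooth muscle at 175503 CPM in replicate 1 and 181344 CPM in replicate 2, and Mir200c of epithelium at 13972 CPM and 14433 CPM. All intervals below describe the error of counting reads alone and are 95% exact Clopper-Pearson intervals unless another kind is named. With 1 library per pool they leave out the spread between pools. Also, 1 molecule can give several reads, so they may be too narrow. In bulk tissue, more cells of a type and more of its miRNA per cell cannot be told apart, and no liver or blood library was at hand to turn a level into a share of cells.

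Mir122 was the most abundant of the 4 and differed most between the pools. It had 14641 counts in replicate 1 and 5051 in replicate 2. These are 2445 CPM (2405 to 2485) in replicate 1 and 757 CPM (736 to 778) in replicate 2. The gene ranked 61 of 1973 by level in replicate 1 and 102 in replicate 2. The mean was 1601 ± 1194 CPM (SD, n = 2), a coefficient of variation of 74.6%. By comparison, the coefficient of variation was 2.32% for Mir143 and 8.11% for Mir223, a miRNA of myeloid white blood cells.

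Mir451a, the one with most counts among the 3 red cell genes, had 3177 counts in replicate 1 and 1695 in replicate 2. Its level was 531 CPM (512 to 549) in replicate 1 and 254 CPM (242 to 266) in replicate 2, with a mean of 392 ± 196 CPM (SD, n = 2). Its cluster partner Mir144 had 1027 counts in replicate 1 and 532 in replicate 2. Both were higher in replicate 1 and stood well above the limit that a count of 0 allows.

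The level of Mir144 was 171 CPM (161 to 182) in replicate 1 and 79.7 CPM (73.1 to 86.8) in replicate 2, with a mean of 126 ± 64.9 CPM (SD, n = 2). Mir486 had 152 counts in replicate 1 and 74 in replicate 2. That is 25.4 CPM (21.5 to 29.8) and 11.1 CPM (8.70 to 13.9), with a mean of 18.2 ± 10.1 CPM. The order Mir122, Mir451a, Mir144, Mir486 was the same in both pools, and no gene's pair of values overlapped that of the next gene. Levels are reads per gene and were not corrected for hairpin length.

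**Figure D1:**
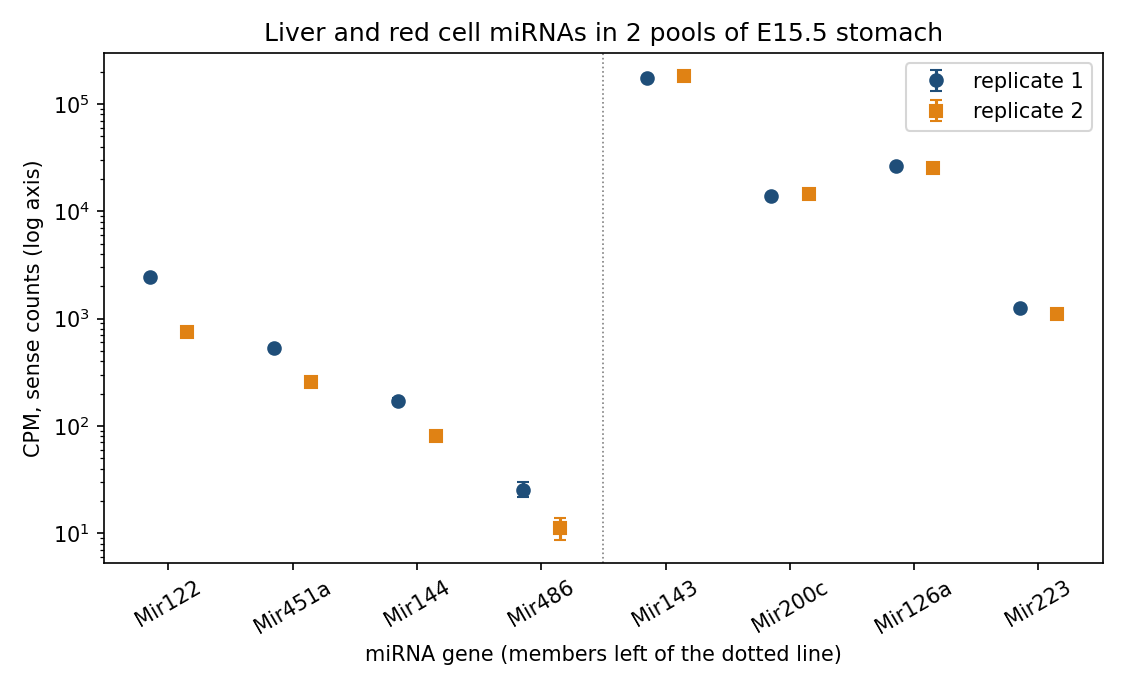
Level in each library, in CPM on a log axis, of the 4 liver and red cell miRNA genes (left of the dotted line) and of 4 genes of the stomach wall, its vessels and white blood cells; bars are 95% exact intervals and are mostly smaller than the symbols. Mir122, Mir451a, Mir144 and Mir486 are each higher in replicate 1, while Mir143 stands at 175503 CPM in replicate 1 and 181344 CPM in replicate 2.

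Together the 4 genes held 0.317% of sense counts in replicate 1 and 0.110% in replicate 2. The 3 red cell genes summed to 727 CPM in replicate 1 and 345 CPM in replicate 2. Mir122 made up 77.1% of the reads of the 4 genes in replicate 1 and 68.7% in replicate 2. Mir451a made up 16.7% in replicate 1 and 23.1% in replicate 2 and Mir144 5.41% and 7.24%, with Mir486 as the rest.

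Scaled to library totals, all 4 genes were higher in replicate 1 by at least 2-fold. The log2 ratios have 1 CPM added, while the folds and intervals come from the counts with nothing added. Mir122 had a log2 ratio of 1.69 and was 3.23-fold higher (log2 interval 1.65 to 1.74). Mir451a had a log2 ratio of 1.06 and was 2.09-fold higher (0.98 to 1.15), and Mir144 had 1.10 and was 2.15-fold higher (0.95 to 1.26). Mir486 had 1.13, and 1.20 with nothing added, which is 2.29-fold (0.79 to 1.62). The intervals of the 3 red cell genes overlap one another and reach below 2-fold, and none reaches the interval of Mir122.

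Few genes differed this much. Of 466 genes with at least 10 summed counts, 24 or 5.15% were at least 2-fold higher in replicate 1 and 3 or 0.644% at least 2-fold lower, and the median log2 ratio was 0.11. A ratio larger than that of Mir122 was seen for 2 genes, Mir196a-2 and Mir129-1, larger than that of Mir486 for 15, of Mir144 for 18 and of Mir451a for 21. These ratios compare 2 libraries with 1 library per pool, so the 2-fold limit has no replicate check.

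**Figure D2:**
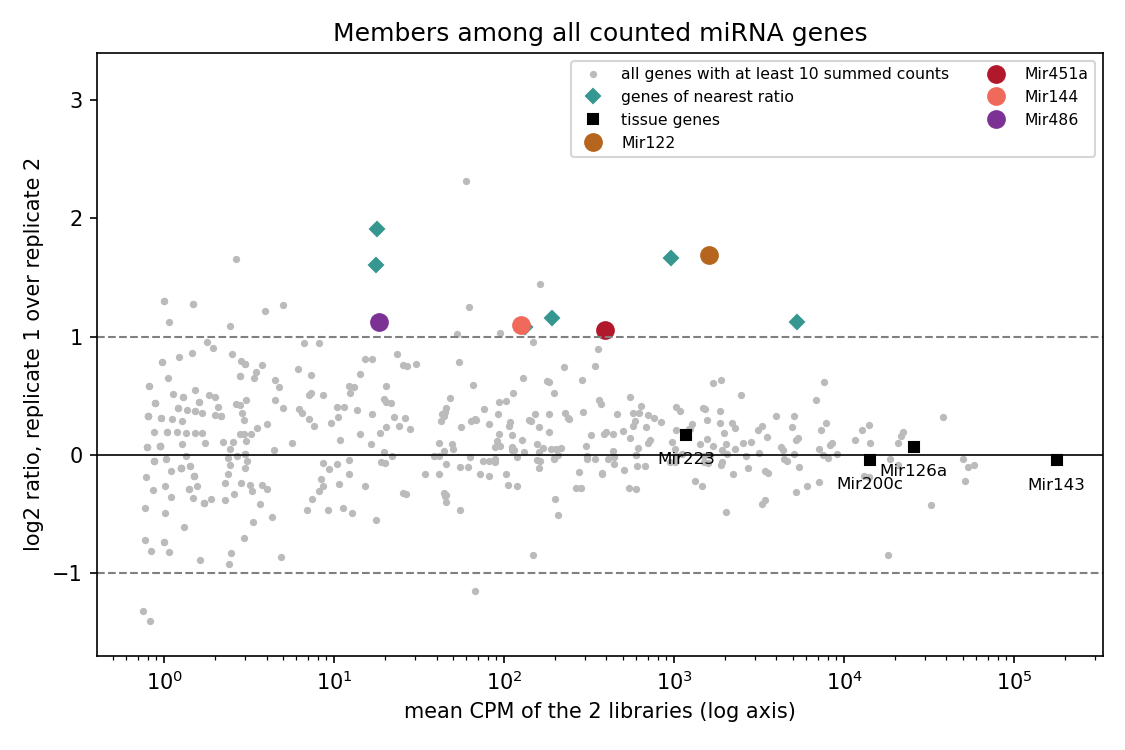
Each point is 1 of the 466 miRNA genes with at least 10 summed counts; the x axis is its mean CPM on a log axis and the y axis its log2 ratio of replicate 1 over replicate 2, with dashed lines at 2-fold. Mir122 (1.69) stands with few other genes near the top, the red cell genes (1.06 to 1.13) lie just past the line, and the squares of Mir143, Mir200c, Mir126a and Mir223 lie near 0.

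The scaling decided on which side of 2-fold the red cell genes fell, but not the side of Mir122. With edgeR's TMM factors the log2 ratios were 1.56 for Mir122, 0.93 for Mir451a, 0.97 for Mir144 and 1.01 for Mir486. With DESeq2 size factors they were 1.53 for Mir122, 0.90 for Mir451a, 0.94 for Mir144 and 0.98 for Mir486. The size factor was 1 for both libraries, which leaves the ratios of the raw counts, apart from the 1 CPM added. So 3 of the 3 red cell genes were past 2-fold with library totals, 1 with TMM and 0 with size factors, and all 3 stayed higher in replicate 1 under each scaling. With nothing added to the CPM, Mir486, of few counts, stood at 1.07 with TMM and 1.04 with size factors, an alternative chosen after its values were seen.

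TMM lowered all log2 ratios by a median of 0.13 and size factors by 0.15. Genes past 2-fold then numbered 18 higher (3.86%) and 4 lower (0.858%) with TMM, and 16 higher (3.43%) and 6 lower (1.29%) with size factors. Measured from the median gene of the same scaling, the genes kept nearly the same place by construction. A scaling shifts all log2 ratios alike, apart from the effect of the 1 CPM added. Mir122 stood 1.58 above it with library totals, 1.55 with TMM and 1.53 with size factors. Mir451a stood 0.95, 0.92 and 0.90 above it, Mir144 0.98, 0.96 and 0.94, and Mir486 1.01, 0.99 and 0.98.

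**Figure D3:**
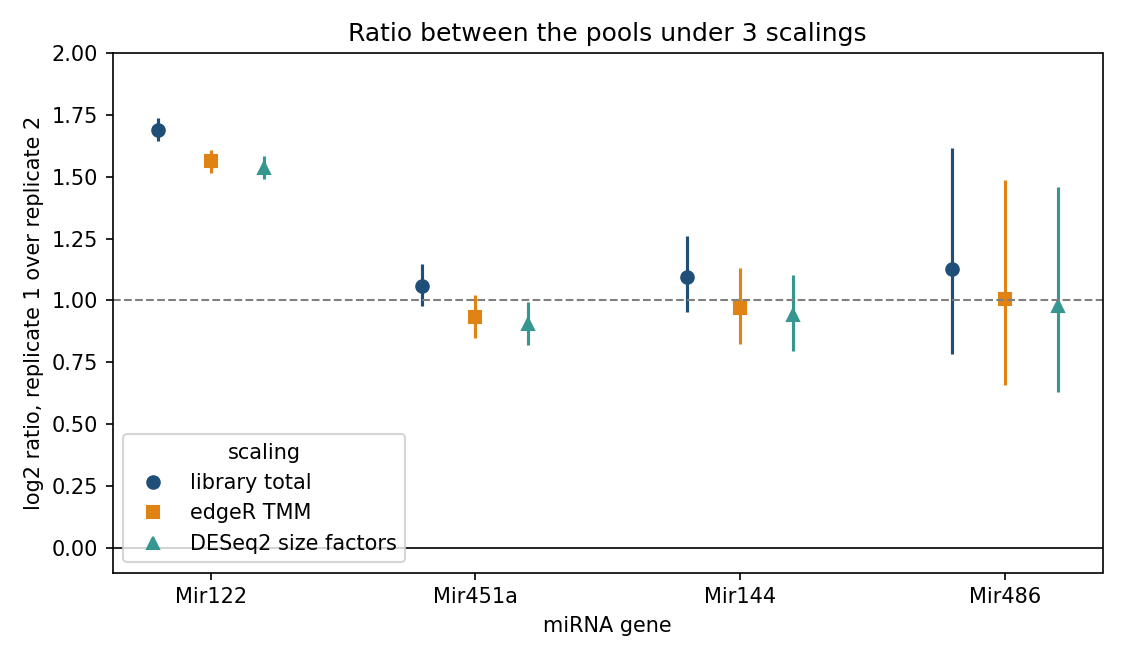
Log2 ratio of replicate 1 over replicate 2 for each gene under 3 scalings; symbols have 1 CPM added, bars are 95% exact intervals from the counts with nothing added, and the dashed line marks 2-fold. Mir122 lies above the line under each scaling (1.53 to 1.69), while Mir451a goes from 1.06 with library totals to 0.90 with size factors.

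Ratios of counts within a library do not depend on the scaling. Mir451a had 3.09 reads for each read of Mir144 in replicate 1 and 3.19 in replicate 2. This ratio changed between the pools by -0.04 on the log2 scale (exact conditional 95% interval -0.22 to 0.13), so no difference between the cluster partners was detectable. The change was -0.13 (-0.56 to 0.29) for Mir451a over Mir486 and -0.09 (-0.54 to 0.35) for Mir144 over Mir486. Mir486 had the fewest counts, and these 2 intervals are the widest of the red cell pairs.

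Beyond counting error, Mir122 did not keep step with the red cell genes in these 2 libraries. It had 4.61 reads for each read of Mir451a in replicate 1 and 2.98 in replicate 2, a change of 0.63 on the log2 scale (0.53 to 0.73). Over Mir144 the change was 0.59 (0.43 to 0.75) and over Mir486 0.50 (0.07 to 0.91). Thus 3 of the 6 pairs had an interval that excludes 0, and these were the 3 that hold Mir122. All 3 rest on the same Mir122 ratio between the pools. The intervals leave out spread between pools, and no share over all genes was computed with the red cell genes as denominators.

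Set against genes of the stomach wall, its vessels and white blood cells, the 4 genes were also higher in replicate 1. The genes used were Mir143 of smooth muscle, Mir200c of epithelium, Mir126a of endothelium and Mir223 of myeloid cells. The 16 ratios rest on the same 4 ratios between pools, each set against 4 denominators. The log2 changes ran from 0.90 for Mir451a over Mir223 to 1.74 for Mir122 over Mir143. Of the 16 changes, 13 were at least 1. The background was all tested genes except the denominator, with the 4 liver and red cell genes included. Among them, a change of at least 1 was seen for 9.68% against Mir143, 9.68% against Mir200c, 7.31% against Mir126a and 5.81% against Mir223. A change above 0 was seen for 69.7%, 69.5%, 57% and 47.1% of them in the same order.

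Ratios to 1 vessel gene and 1 white blood cell gene are given next, and do not stand for blood as a whole. Mir451a had 0.0202 reads for each Mir126a read in replicate 1 and 0.0101 in replicate 2, a log2 change of 1.00 (0.91 to 1.08). For each Mir223 read there were 0.425 reads of Mir451a in replicate 1 and 0.228 in replicate 2, a change of 0.90 (0.80 to 1.00). Mir223 itself was at 1247 CPM in replicate 1 and 1112 CPM in replicate 2 (log2 ratio 0.17), and Mir126a at 26216 CPM and 25041 CPM (0.07). The red cell genes thus differed between the pools by more than Mir223 and Mir126a. Both had the lowest log2 ratio among the tested genes of their lists. The highest were 0.65 in the white blood cell list and 0.75 in the vessel list. Opposite-strand reads at Mir142b had 0.73.

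Mir122 differed further still. It had 1.96 reads for each Mir223 read in replicate 1 and 0.680 in replicate 2, so it stood above Mir223 in replicate 1 and below it in replicate 2. The log2 change was 1.53 (1.46 to 1.59) over Mir223 and 1.63 (1.58 to 1.67) over Mir126a. Mir486 over Mir143 changed by 1.24 (0.83 to 1.66) and Mir144 over Mir200c by 1.15 (1.00 to 1.31).

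**Figure D4:**
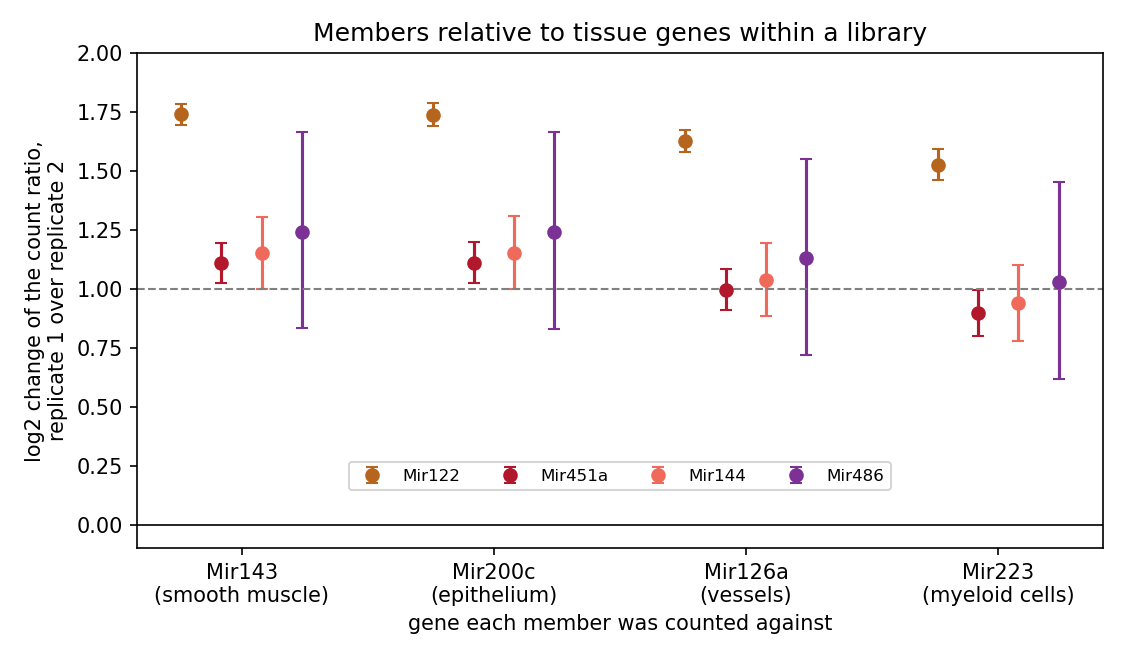
Change between the pools, as log2 of replicate 1 over replicate 2, of the count of each liver or red cell gene divided by the count of a tissue gene in the same library; bars are 95% exact conditional intervals. Values lie between 0.90 and 1.74, with Mir122 highest against each of the tissue genes.

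Other miRNAs found in liver or red cells, but made by many tissues, were counted in the same libraries. Of 8 further liver-expressed genes tested, 0 were past 2-fold with any of the 3 scalings, beside 5.15% higher and 0.644% lower over all genes with library totals, so this count is near that background. Their median log2 ratio was 0.15, beside 0.11 over all genes. Mir21a, present in most tissues, averaged 12668 ± 1309 CPM, Mir22 2193 ± 285 CPM and Mir192, a miRNA of gut and liver, 1507 ± 5.24 CPM (SD, n = 2 each). Their log2 ratios were 0.21, 0.27 and -0.01.

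Of 7 further genes of red cells tested, 0 were likewise past 2-fold, again near the share of 5.15% over all genes, and the median was 0.33. Mir15a and Mir16-1, a cluster that restrains the cell cycle, had log2 ratios of 0.18 and -0.22, and Mir107 had 0.37. Mir16-1 has a copy, Mir16-2, and reads shared by both may be missing. Mir451b and Mir3107 were on this list but not analysed here.

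The white blood cell and vessel genes were also checked as whole lists. Of the white blood cell list 6 of 7 genes were analysed and 4 had enough sense counts. None of these 4 was past 2-fold, beside 5.15% higher over all genes with library totals, and their median log2 ratio was 0.46. Mir146, the gene of miR-146a, which restrains inflammatory signalling, had a ratio of 0.65, Mir155, of activated lymphocytes and macrophages, 0.35 and Mir150, of mature lymphocytes, 0.58. The list summed to 1532 CPM in replicate 1 and 1308 CPM in replicate 2 on the sense strand.

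Mir142b had no sense counts, but its opposite strand, where Mir142 of blood cells lies, had 10569 counts in replicate 1 and 7087 in replicate 2. On the scale of sense CPM these are 1765 in replicate 1 and 1062 in replicate 2, a log2 ratio of 0.73 (0.69 to 0.78). With them the list summed to 3297 CPM in replicate 1 and 2370 CPM in replicate 2. Vessel genes summed to 26617 CPM in replicate 1 and 25307 CPM in replicate 2. Their median log2 ratio was 0.28 over 3 genes, and none was past 2-fold, beside 5.15% higher over all genes. Mir221 had the highest ratio there, 0.75, and Mir222 had 0.28.

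Among the other lists, miRNAs embedded in the Hox clusters moved in the same direction as the liver and red cell genes. Of these 3 of 5 were past 2-fold with library totals, beside 5.15% higher over all genes. With TMM and with size factors 2 were past it. The median was 1.13 with library totals, 1.00 with TMM and 0.97 with size factors. The list summed to 51979 CPM in replicate 1 and 38320 CPM in replicate 2, and its sixth gene, Mir196a-1, had 3 counts in replicate 1 and 0 in replicate 2. Mir10a had a log2 ratio of 0.32, Mir10b 1.13 and Mir196b 1.66. Their part in the results for Mir122 and the red cell genes was not tested.

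Muscle was checked because Mir486 is also known there. Of 5 striated muscle genes tested, 1 was past 2-fold and higher in replicate 1, beside 5.15% over all genes. This was Mir208a, named here after its values were seen, at 35 counts in replicate 1 and 13 in replicate 2. The list summed to 198 CPM in replicate 1 and 261 CPM in replicate 2. Its most abundant gene, Mir206 of skeletal muscle, had a log2 ratio of -0.85, Mir208b 0.31 and Mir499 0.67. Mir133a-1 and Mir133a-2 were at 0 in both libraries, and they carry copy numbers, so shared reads may be missing.

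Epithelial, smooth muscle, pancreas and endocrine genes were checked last. None of the 7 epithelial and 2 smooth muscle genes were past 2-fold, with medians of 0.15 and 0.23. Over all genes, 5.15% were at least 2-fold higher in replicate 1 and 0.644% lower with library totals. Of 7 pancreas and endocrine genes 1 was higher in replicate 1 by over 2-fold, Mir216a, named after its values were seen, at 11 counts in replicate 1 and 2 in replicate 2. Mir375, a miRNA of endocrine cells, had a log2 ratio of -0.85. With size factors, Mir375 (-1.01) and Mir206 came past 2-fold as lower in replicate 1.

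The genes with the most similar ratio were named over the 2 libraries, among those with at least 100 summed counts. Nearest to Mir122 were Mir196b, which differed from it by -0.03 on the log2 scale, Mir129-2 by -0.09 and Mir129-1 by 0.22. Nearest to the median of the red cell genes, 1.10, were Mir449a, which differed by -0.02, Mir10b by 0.03 and Mir574 by 0.06. With a single ratio for each gene, likeness says only that the pools differed by a similar factor.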

How the data were processed

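The authors deposited 1 table of raw read counts per library, on assembly mm10 and GENCODE M4 per the deposited description files. The aligner and the counting tool are not named there. In each gene row the first count is the sum of the other 2; the second was taken as sense and used. Lines naming no gene held 46.4% of reads in replicate 1 and 45.5% in replicate 2 and were left out of totals.

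Symbols and positions came from GENCODE M21 on the same assembly (1894 of 1973 identifiers matched; Mir146 was found by its synonym miR-146a), sequences from RefSeq on GRCm38.p6. Ratios are replicate 1 over replicate 2 with 1 CPM added; a 2-fold limit was the call, over genes with at least 10 summed counts. TMM factors, and edgeR's exact test with the common dispersion of an intercept-only design and Benjamini-Hochberg adjustment, came from edgeR 4.0.16, size factors from DESeq2 1.42.0. Steps were tested on simulated counts. Other tools were R 4.3.3 and Python 3.11.15 with scipy 1.17.1, numpy 2.4.6, pandas 2.3.3 and matplotlib 3.10.9.

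Members, lists and tests were chosen with earlier results of these data known. Named were the 4 genes, 4 tissue genes, up to 3 genes of highest mean CPM per list and the 3 nearest in ratio to each reference, beside Mir196a-2 and other exceptions stated, which were named after their values were seen. The pools are called biological replicates by the labels, and n = 2 limits every SD. Alternatives covered scaling, pseudocount, strand, count minimum, the test and leaving out each replicate.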

Additional observations from a re-analysis of the deposited data

Results flagged for a closer look

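Opposite-strand counts at Mir486, which the comparisons do not use, numbered 12 in replicate 1 and 8 in replicate 2. They stood above the limit of 3 counts that a count of 0 allows, at a locus where Mir3107 lies on the other strand.

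At Mir142b, of the white blood cell list, opposite-strand counts numbered 10569 in replicate 1 and 7087 in replicate 2, with none on the sense strand. Mir142 lies on that other strand.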

How the results depend on the processing

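The log2 ratio of Mir122 stayed past 2-fold under the 8 alternatives run. Mir451a came inside the limit with TMM (0.93) and size factors (0.90), Mir144 likewise (0.97 and 0.94), and Mir486 with size factors (0.98) and with pseudocount 5 (0.92); no ratio changed sign. TMM and size factors lower all ratios, and a larger pseudocount lowers those of rare genes, by construction. The 27 genes past 2-fold became 16 when scaled to all reads, 41 with pseudocount 0.5, 13 with pseudocount 5, 53 with none among genes counted in both libraries, 16 with a minimum of 100 summed counts and 4 with edgeR's exact test, in which each side is 1 library. With the 2-fold limit and an exact binomial test added the count was again 27. Mean CPM without either replicate ran from 757 to 2445 for Mir122, 254 to 531 for Mir451a, 79.7 to 171 for Mir144 and 11.1 to 25.4 for Mir486. Scaled to all reads, mean levels were 833, 205, 65.5 and 9.50 CPM in the same order, since lines naming no gene then enter the total. Ratios between members and to tissue genes moved by less than their intervals with both strands or 0.5 counts added, the alternatives for tissue genes chosen after seeing the data. No paired analysis was possible because both libraries belong to the same group. Mir486 had the fewest counts of the 4 genes, and the unassigned multi-mapping reads may bear on it as well. How many reads of its locus were lost to them was not measured.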
